A study of Arabidopsis thaliana with 72 samples.

Results

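Pseudouridine (Ψ) sites that lie between C residues and have no G at the position before them were examined in the nuclear transcripts of Arabidopsis Col-0. A site was included when its 7-letter motif, as given with the deposited site list, held the modified U at letter 4, a C at letters 3 and 5, and A, C or T at letter 2. This rule uses sequence alone and selected 527 of the 8512 listed sites (527 of 8275 on chromosomes 1 to 5). They comprised 273 UCΨC, 164 CCΨC and 90 ACΨC sites and are referred to below as CΨC sites without an upstream G. The main comparison was with the 1350 GCΨC sites of the same list, which carry G at letter 2.

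The maps came from BID-seq, in which bisulfite treatment makes reverse transcription skip Ψ and leaves a deletion in the read. Poly(A)-enriched RNA was profiled from flower, seedling (7 d), silique, cauline leaf, stem, rosetta leaf (30 d), mature dry seed, shoot (14 d) and root (14 d). Bisulfite was applied to 56 libraries, 5 to 7 from each tissue, and 16 further libraries, 1 or 2 from each tissue, were untreated inputs. All plants were Col-0. Seedlings, shoots and roots were taken from plates of Murashige and Skoog medium and the other tissues after transfer to soil, so tissue, age and growth medium cannot be told apart. For each tissue the authors combined the replicate libraries into 1 Ψ fraction (the estimated share of transcripts modified) and 1 flag for sites that passed their filter, here termed called sites. The spread between libraries and the reads behind a fraction are therefore unknown, and 2 tissues could not be tested against each other.

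Ψ is an isomer of uridine with a carbon-carbon bond to the sugar, made after transcription by pseudouridine synthases. Some of these enzymes act alone and read a short sequence or a fold, whereas others are directed by H/ACA RNAs that pair with the target. In mRNA, Ψ has been linked to translation and stability, and in coding sequence it lies within codons. Which plant enzyme modifies CΨC sites was not measured in these libraries.

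The sites called in the most tissues show the range of contexts in the class. PEP (AT4G26000, a KH-domain RNA-binding protein, chr4:13198082-13198110, + strand), ADF2 (AT3G46000, an actin depolymerizing factor, chr3:16908093-16908121, - strand), PSBO1 (AT5G66570, a subunit of the photosystem II oxygen-evolving complex, chr5:26568955-26568983, + strand) and AT2G45820 (a remorin, chr2:18864521-18864549, - strand) were called in every tissue, and ML5 (AT1G29400, a MEI2-like RNA-binding protein, chr1:10293063-10293091, - strand) in 8. Each lies in coding sequence. Sequences run 5′ to 3′ on the transcript strand, as DNA letters of the TAIR10 chromosomes in RefSeq, and the capitals mark the 4 letters of the class in which the T after the first C is modified.
PEP: ctatagtagagaACTCtggtgcatcagtt
ADF2: gattgtagagaaACTCggtgaacctgaac
PSBO1: tcgctcttgccaCCTCtgctctcgtcgtc
AT2G45820: gttgacgtagaaTCTCcggctgttttagc
ML5: gcaatgtagaagACTCtgaactcacagct

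A second set shows a longer stretch shared by 71 of the 527 sites. AT5G16880 (annotated as a Target of Myb protein, chr5:5551071-5551099, + strand) was called in 8 tissues. AT5G06210 (an RNA-binding protein, chr5:1879189-1879217, + strand) and TPS9 (AT1G23870, a trehalose-phosphatase/synthase family protein, chr1:8434603-8434631, + strand) were called in 7. All 3 sites lie in coding sequence. Here the capitals mark the shared stretch from position -5 to position +3, with Ψ at position 0.
AT5G16880: ggaagagaaGAATCTCTGgttagaaaatc
AT5G06210: ttatggacaGAGTCTCTGacagatcaaaa
TPS9: agaggatggGAGTCTCTGagcgactggct

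The sequence around the sites went beyond the C residues that defined them. G occupied position +3 at 404 of 527 sites, or 76.7% (95% Wilson interval 72.9 to 80.1). Among 14138 unlisted uridines in the same 4-letter context in the exons of the same transcripts the share was 21.7%. U at position +2 was found at 63.8% of sites, against 37.0% of unlisted uridines, whereas A at +2 was nearly absent (11 sites, 2.09%, against 25.2%). U at position +4 was also depleted, at 5.31% of sites and 30.8% of unlisted uridines. Upstream, G at position -5 was present at 47.4% of sites (43.2 to 51.7) and 20.4% of unlisted uridines, and A at position -4 at 40.0% and 25.2%.

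Compared with GCΨC sites, the share with G at +3 was similar and the shares at +2 and -5 differed. G at +3 reached 76.7% of CΨC sites without an upstream G and 77.0% of GCΨC sites. C at +2 was found at 23.1% of CΨC sites without an upstream G (19.8 to 26.9) and at 3.78% of GCΨC sites (2.88 to 4.93). U at +2 was found at 63.8% of CΨC sites without an upstream G and 75.5% of GCΨC sites, and G at +2 at 58 of 527 and 270 of 1350 sites, again with intervals that did not overlap. Upstream, G at -5 was found at 47.4% of CΨC sites without an upstream G (43.2 to 51.7) and at 33.2% of GCΨC sites (30.7 to 35.7), intervals that did not overlap. These intervals cover sampling of sites only, and the sites share one site-calling procedure. The 71 members with the shared stretch all carry G at -5, and the share among the other members was not computed.

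**Figure D1:**
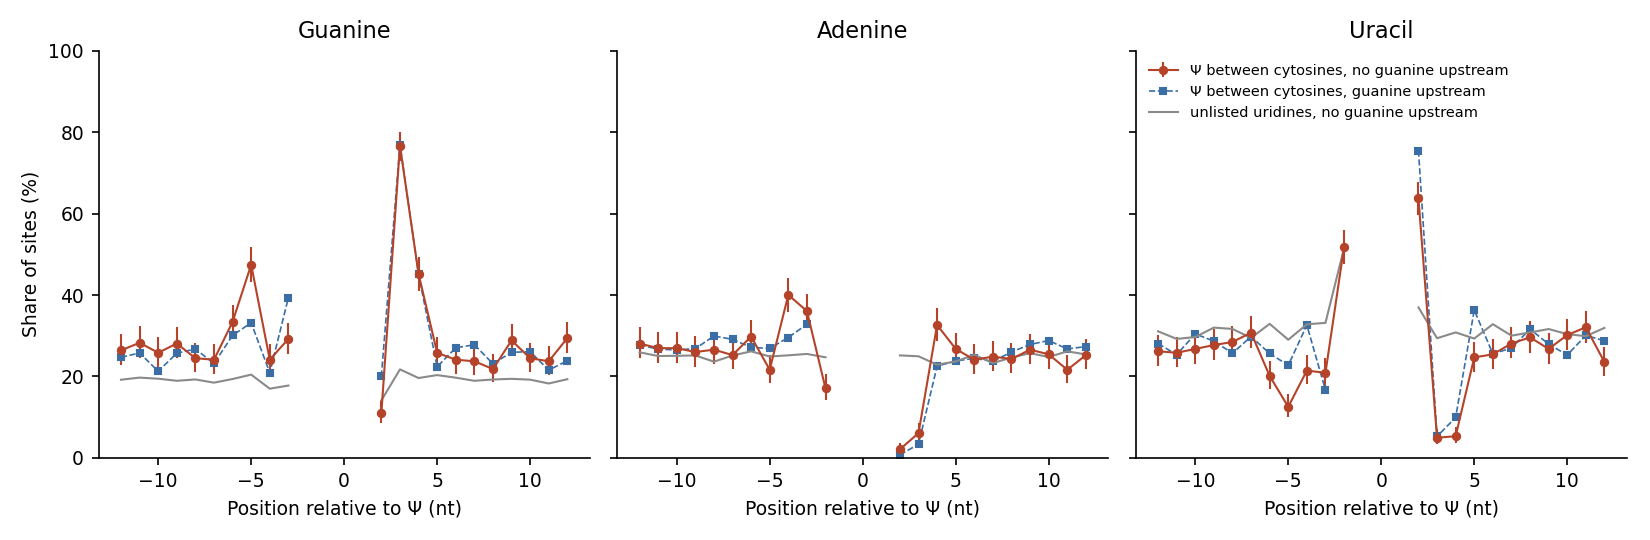
Share of sites (%) with guanine, adenine or uracil at each position from -12 to +12 nt relative to Ψ, for CΨC sites without an upstream G (red, n = 527, bars are 95% Wilson intervals), GCΨC sites (blue, n = 1350) and unlisted uridines in the same 4-letter context of the same transcripts (grey, n = 14138). Positions fixed by the selection are left blank. Guanine peaks at +3 in both classes of Ψ sites, and the peak at -5 is higher in the red class (47.4%) than in the blue class (33.2%).

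The frequency with which a CUC uridine was listed differed with these neighbours. Within the spliced transcripts of the 5150 protein-coding genes that held any listed site, 512 of 143416 uridines in ACUC, CCUC and UCUC were listed, or 3.57 per 1000 (3.27 to 3.89). For GCUC the value was 38.4 per 1000 (36.4 to 40.5). When U and G followed at +2 and +3, the values were 25.3 per 1000 without an upstream G (22.5 to 28.3) and 262.4 per 1000 with it (246.7 to 278.6). G at +3 went with a higher rate for each upstream base. ACUC was listed at 10.2 per 1000 with G at +3 and 0.363 per 1000 without it, CCUC at 15.3 and 1.72, and UCUC at 12.8 and 1.07. The most often listed 5-letter context of the class was CCUCU followed by G, at 41.2 per 1000.

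Among UCUCUG contexts, the share of uridines that were listed differed with the 3 bases further upstream. The stretches GAAUCUCUG and GAGUCUCUG were searched on the transcript strand after their frequency among the members had been seen, so the comparison is descriptive. They occurred 214 times in the searched transcripts and 70 of these occurrences were listed (32.7%, interval 26.8 to 39.3 or 327 per 1000). UCUCUG preceded by other bases occurred 5713 times and was listed 51 times (0.893%, or 8.93 per 1000). Genes without any listed site were not searched, so unlisted occurrences in them are missing from both rates. A gene whose only listed site was the stretch entered the search through that site. This can raise the rate with the stretch more than the rate without it, and the size of this effect was not measured. The stretch was present at 71 of 527 members (13.5%), and since it contains UCUC, any listed site centred on it belongs to the class by definition. These 71 sites made up 26.0% of UCΨC sites and lay in 70 genes.

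Within the same searched genes, and so with the same limit, this difference was present in each expression band of 10 TPM or more. In genes whose highest level over the 9 tissues was 30 to 100 TPM (transcript abundance scaled by length and library total), 32 of 89 occurrences with the stretch were listed (36.0%, 26.8 to 46.3) and 11 of 2131 without it (0.516%). In genes of 100 TPM or more, 31 of 99 with the stretch (31.3%) and 39 of 2741 without it (1.42%) were listed. At 10 to 30 TPM the counts were 5 of 23 (21.7%) and 1 of 762 (0.131%). Genes below 10 TPM held few occurrences with the stretch, and there 2 of 3 with it and 0 of 79 without it (upper bound 4.64%) were listed.

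**Figure D2:**
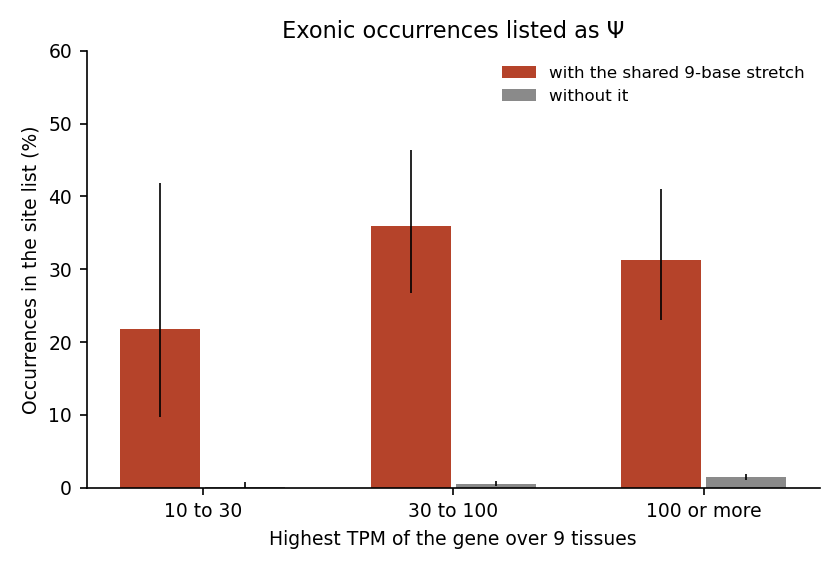
Share (%) of exonic UCUCUG occurrences present in the Ψ site list, by the highest TPM of the gene over 9 tissues in bands from 10 TPM upward, for occurrences with the shared 9-base stretch (red) and without it (grey). Bars give 95% Wilson intervals, and the red bars lie between 21.7% and 36.0% whereas the grey ones stay at or below 1.42%. Only genes that held any listed site were searched.

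With another base at -2 the same 3 bases went with a smaller difference. GA and a purine before ACUCUG were listed at 88.4 per 1000 occurrences, and ACUCUG with other bases there at 16.7 per 1000. For CCUCUG the values were 153.8 and 38.7 per 1000, and for GCUCUG 423.6 and 248.7 per 1000. The ratio between occurrences with and without these bases was largest for UCUCUG. These bases had been chosen for their frequency before UCUCUG among the members, which favours that order, so the ranking is descriptive only. Without U and G at +2 and +3, GA and a purine before UCUC gave 6.04 listed sites per 1000.

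Occurrences of the stretch that were listed differed from those that were not at bases outside it. A preceded the stretch at position -6 in 52.9% of the 70 listed and 28.5% of the 144 unlisted occurrences. U followed at +4 in 4.29% of listed and 34.7% of unlisted occurrences. Listed occurrences lay in coding sequence in 91.4% of cases and unlisted ones in 63.2%. Nearly all the genes in either group reached 10 TPM in some tissue, 68 of 70 and 143 of 144.

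Sites with the stretch were called with intermediate fractions. Their 181 calls had a median fraction of 0.201 (quartiles 0.167 and 0.252), against 0.167 (0.120 and 0.197) for 97 calls of UCΨCUG sites without it. The genes of these calls had a median of 80.3 TPM with the stretch and 182.5 TPM without it. The median fraction was higher with the stretch in each of the 9 tissues, from 0.187 in stem to 0.302 in the 7 called sites of seed. In AT5G06210 the fraction had a lowest value of 0.171 in root, a median of 0.265 and a highest value of 0.380 in silique, and it was called in all tissues except seedling and root. TPS9 ranged from 0.137 in rosetta leaf, where it was not called, over a median of 0.202, to 0.264 in flower.

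Most members lay in coding sequence. Of the 527 sites, 517 were in protein-coding genes, 1 in a snoRNA gene, 6 in other annotated genes and 3 in no annotated gene. Of 512 exonic sites, 462 were in coding sequence (90.2%, 87.4 to 92.5). The 3′ untranslated region (UTR) held 38 (7.42%) and the 5′ UTR 12 (2.34%). For all listed exonic sites on chromosomes 1 to 5 these shares were 85.9%, 9.53% and 4.58%. For all ACUC, CCUC and UCUC occurrences in the host transcripts they were 70.3%, 11.5% and 18.2%. Members were thus rarer in 5′ UTRs than their 4-letter context. GCΨC sites were in coding sequence at 91.1%. The sites were spread along coding sequence, and 5 equal parts of the coding length each held 17.5% to 22.1% of the 462 sites. Counted over called sites in each tissue, coding sequence held 91.4% of CΨC sites without an upstream G and 91.3% of GCΨC sites on average, a difference that was not larger than the spread between tissues (exact sign-flip permutation test over 9 tissues, two-sided, p = 0.992, adjusted p = 0.992).

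The sites fell preferentially at the first base of serine codons. Ψ was at codon position 1 in 217 of 462 sites (47.0%, 42.5 to 51.5), against 29.9% of 9969 unlisted uridines in the same 4-letter context of the same coding sequences. Position 2 held 18.0% of sites and 32.5% of unlisted uridines, and position 3 held 35.1% and 37.6%. Serine codons carried 300 of the 462 sites (64.9%), against 45.1% of unlisted uridines. TCT with Ψ as its first base alone accounted for 152 sites (32.9%, against 11.4%), and the leucine codon CTC with Ψ in the middle for 83 (18.0%, against 32.5%). The trait was not particular to the class. GCΨC sites were at codon position 1, always in serine codons, in 33.5% of cases, against 19.8% of unlisted GCUC uridines. For TCT with Ψ as its first base their shares were 28.2% and 7.37%. Because U at +2 makes TCT out of a first-position CΨC, codon use and the preference for U at +2 cannot be told apart here.

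RNA folding of 101-nt spliced windows placed the sites in paired positions more often than unlisted uridines. The predicted probability that Ψ was unpaired exceeded 0.5 at 152 of 512 members (29.7%, 25.9 to 33.8), against 56.0% of 13637 unlisted uridines in the same context. For sites followed by U and G the shares were 37.2% (31.8 to 42.9) and 51.0% (47.9 to 54.0). GCΨC sites had a share of 31.8% and unlisted GCUC uridines 38.1%. Within the class the share was 38.6% for ACΨC, 42.8% for CCΨC and 18.9% for UCΨC. Among occurrences of GAAUCUCUG and GAGUCUCUG, 27.1% of listed and 33.6% of unlisted ones exceeded 0.5, with overlapping intervals. These are predictions from sequence, which also differs between the groups at -5, +2 and +3. G was more frequent around members at further positions too, such as -9 (28.1% against 18.9%). The groups also differ in region. Coding sequence held 90.2% of exonic members and 70.3% of all ACUC, CCUC and UCUC occurrences in the host transcripts. The part of these differences in the predicted pairing was not tested.

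The number of called sites differed between tissues. Root had the most, with 204 of 518 sites that had a value (39.4%; 32.5% of all sites on chromosomes 1 to 5 were called there). In flower 150 sites were called (28.6%; 29.4% of all sites). Calls numbered 112 in cauline leaf (21.8%; 18.7% of all sites), 111 in seedling (21.1%; 26.0%), 102 in stem (19.5%; 23.9%), 94 in silique (17.9%; 19.5%), 91 in rosetta leaf (17.4%; 19.9%) and 90 in shoot (17.2%; 22.2%). Seed had the fewest, with 77 of 497 (15.5%; 19.4% of all sites).

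Relative to GCΨC sites, the share called was lower on average but not beyond the spread between tissues. It averaged 22.0% for CΨC sites without an upstream G and 26.5% for GCΨC sites, a mean difference of -4.41 percentage points (SD 6.28, lower in 6 of 9 tissues, exact sign-flip permutation test, two-sided, p = 0.102, adjusted p = 0.203 over 8 tests). The 3 tissues with a higher share were root (39.4% against 31.02%), cauline leaf (21.8% against 20.9%) and seed (15.5% against 15.3%). Against all other listed sites the difference was -1.57 percentage points (p = 0.301, adjusted p = 0.481, same permutation test). The same sites enter each tissue, so these tests cover the spread between tissues and not between sites.

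**Figure D3:**
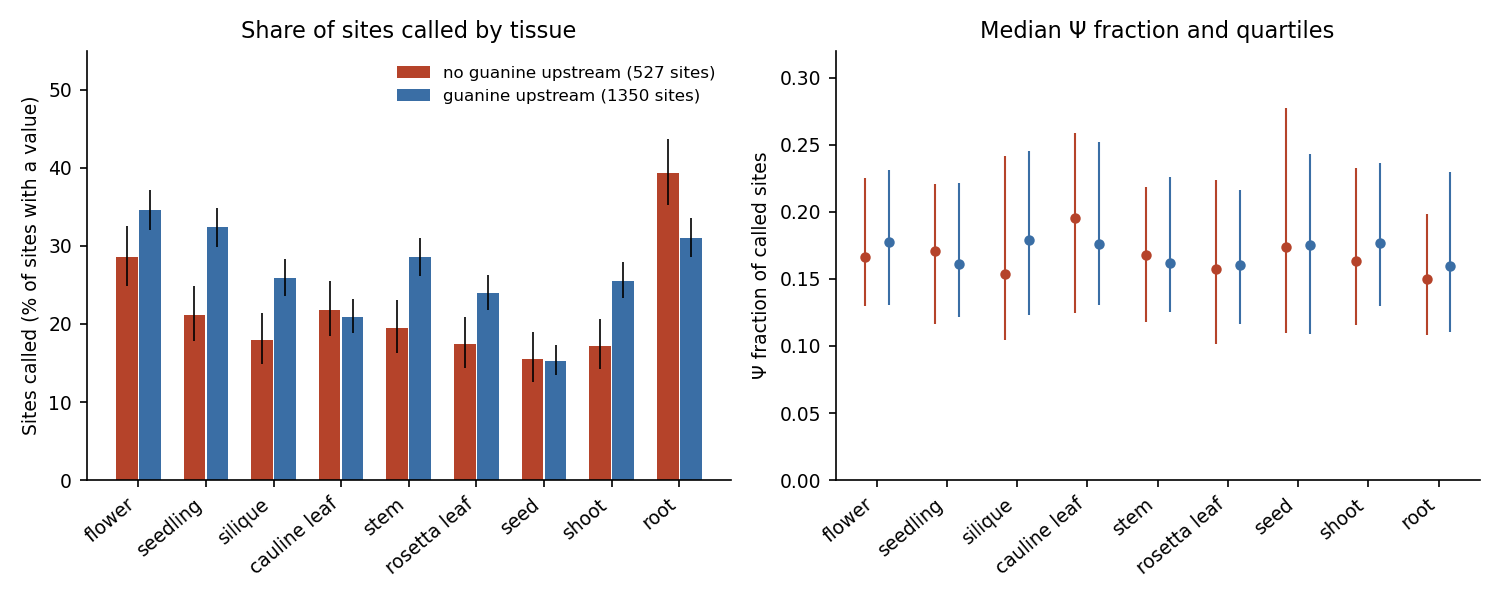
Left, share of sites called (%) in each of 9 tissues for CΨC sites without an upstream G (red, 527 sites) and GCΨC sites (blue, 1350 sites), with 95% Wilson intervals. Right, median Ψ fraction of the called sites with lines from the lower to the upper quartile; the red class has the larger share of called sites in root (39.4% against 31.02%), and the quartiles of the fractions overlap in every tissue.

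Per occurrence of the 4-letter context, calls were fewer without the upstream G in every tissue. The number of called sites per 1000 occurrences in the searched transcripts averaged 0.777 without it and 10.1 with it (mean difference -9.32, SD 2.22, 9 of 9 tissues, exact sign-flip permutation test, two-sided, p = 0.00391, the smallest that 9 tissues can give, adjusted p = 0.0104). Root had 1.40 per 1000 without the upstream G and 11.8 with it, and seed 0.495 and 5.53. Every tissue was divided by the same occurrence counts and drew on the same list, which held 3.57 and 38.4 sites per 1000. The shared direction therefore largely restates the list, and the 9 tissues are not independent results. Per occurrence of its context the class was therefore rarer than GCΨC sites, although its share of called sites was near that of the rest of the list. A rate over uridines in all contexts was not computed.

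Called sites of the class carried low to moderate fractions. Over the 1031 calls the median was 0.163 (quartiles 0.115 and 0.226), 693 calls (67.2%) were below 0.2 and 17 were above 0.5. The tissue medians lay between 0.150 in root and 0.196 in cauline leaf. Averaged over tissues the median was 0.167 for CΨC sites without an upstream G and 0.170 for GCΨC sites (mean difference -0.00313, SD 0.0135, tissue differences from -0.0251 to 0.0194, exact sign-flip permutation test, two-sided, p = 0.504, adjusted p = 0.672). In contrast, the class was lower than the 628 sites with Ψ between U and C and no upstream G, whose median averaged 0.267 (mean difference -0.101, SD 0.0184, lower in 9 of 9 tissues, p = 0.00391, adjusted p = 0.0104, same permutation test). Against all other listed sites the mean difference was 0.00211 (p = 0.730, adjusted p = 0.835, same permutation test). With other processing the class was lower in 9 of 9 tissues with means in place of medians (-0.0543, adjusted p = 0.00781, same permutation test) and with a minimum fraction of 0.1 (-0.0382, adjusted p = 0.00781, same permutation test).

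Called fractions were lower in genes of higher expression. Spearman's rho between fraction and TPM over called members lay between -0.60 in root (202 sites) and -0.85 in silique (93 sites), a description over sites that share libraries and a filter whose depth requirement is not known. Members in genes of 10 to 100 TPM had a median called fraction of 0.226 and those in genes of 1000 TPM or more 0.0991. The lowest called fraction was 0.0794 in the lower band and 0.0504 in the upper one. The share called was 17.1% of site and tissue pairs at 10 to 100 TPM, 34.9% at 100 to 1000 TPM and 46.9% at 1000 TPM or more. At 10 to 100 TPM the median fraction was 0.226 for the class and 0.211 for GCΨC sites, and at 100 to 1000 TPM it was 0.132 and 0.133.

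The genes with called members were more highly expressed than those with called GCΨC sites. The median of log2(TPM + 1) averaged 7.23 for CΨC sites without an upstream G and 6.75 for GCΨC sites (mean difference 0.48, SD 0.22, higher in 9 of 9 tissues, exact sign-flip permutation test, two-sided, p = 0.00391, adjusted p = 0.0104). Genes recur between tissues, so this test covers the spread between tissues and not between genes. The difference was uneven within the class. Over calls the median was 107.9 TPM for GCΨC, 120.4 TPM for UCΨC, 150.1 TPM for ACΨC and 241.4 TPM for CCΨC sites. Transcript abundance thus moved with membership of the class, and its part in the calls was not tested.

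The base at -2 separated the class by fraction. Over all calls the median was 0.219 for ACΨC (155 calls), 0.177 for UCΨC (540 calls) and 0.111 for CCΨC (336 calls). CCΨC had the lowest median in each of the 9 tissues, between 0.0968 and 0.118. The ACΨC median exceeded that of CCΨC by 0.0627 to 0.218, and the UCΨC median exceeded it by 0.0488 to 0.0971. ACΨC was above UCΨC in 8 tissues and level with it in stem (difference -0.000832). Calls below 0.2 made up 44.5% of ACΨC, 63.1% of UCΨC and 84.2% of CCΨC calls.

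Host gene expression moved with the base at -2 as well. The genes of CCΨC calls had a median of 241.4 TPM, those of ACΨC calls 150.1 TPM and those of UCΨC calls 120.4 TPM. Within genes of 10 to 100 TPM the order was largely kept. ACΨC remained above CCΨC in 9 of 9 tissues (by 0.0730 to 0.210), and UCΨC above CCΨC in 8 of 9. These values rest on as few as 2 ACΨC and 3 CCΨC sites in a tissue, and no test was made because the grouping was chosen with the fractions known.

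**Figure D4:**
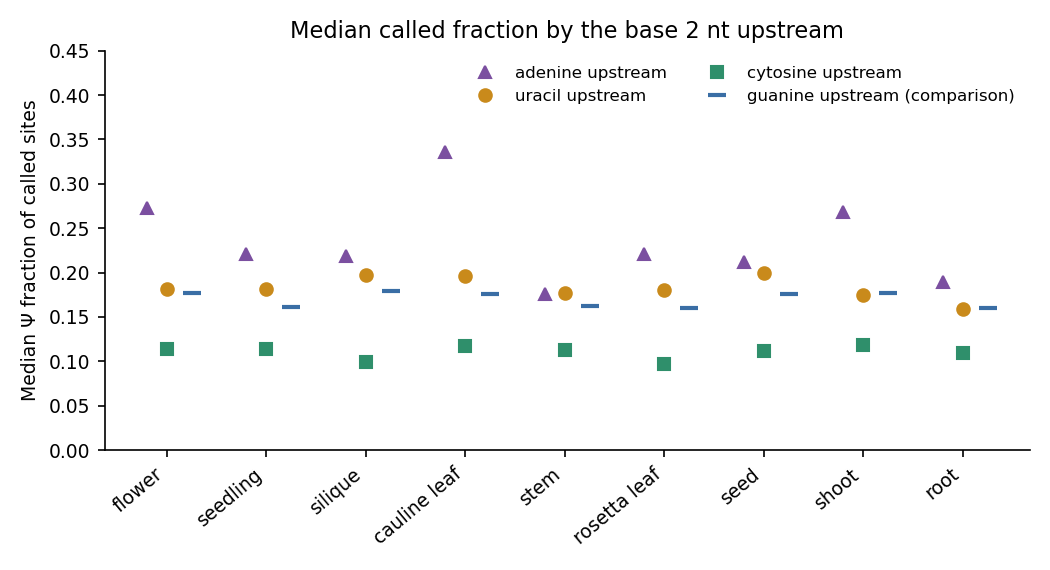
Median Ψ fraction of called sites in each of 9 tissues by the base 2 nt upstream of Ψ: adenine (triangles), uracil (circles) and cytosine (squares), with GCΨC sites as blue bars for comparison. The squares stay between 0.0968 and 0.118 and are the lowest in every tissue.

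Few sites were called throughout the plant. In all 9 tissues 4 sites were called (1.28% of all sites on chromosomes 1 to 5), 57 in at least 5 tissues (10.8%; 11.7% of all sites), 305 in exactly 1 tissue (57.9%; 58.6% of all sites) and 506 in at least 1 (97.5% of all sites). The remaining 21 listed sites were called in none. Of the 527 sites, 483 had a value in each tissue and 296 had a value above 0 in each. Over these 296 sites the range across tissues had a median of 0.109, from 0.0227 to 0.959.

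The 4 sites called everywhere kept the same order by fraction in each of the 9 tissues. In PEP, a regulator of pistil development, the fraction was 0.308 in seed at the lowest, 0.450 at the median and 0.570 in flower at the highest, while the transcript had 24.4 to 118 TPM and was most abundant in seed. ADF2, whose product severs actin filaments, ranged from 0.214 in root over a median of 0.272 to 0.289 in silique. PSBO1 ranged only from 0.189 in shoot over 0.205 to 0.231 in cauline leaf, although its transcript had 28.4 TPM in seed and 2712 TPM in rosetta leaf. AT2G45820 had the lowest fractions of the 4, from 0.102 in root over 0.109 to 0.170 in cauline leaf.

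Further sites of wide occurrence lay in genes of metabolism, RNA binding and transcription. ML5 ranged from 0.240 in root, where it was not called, over 0.348 to 0.369 in flower. COR47, a cold-regulated dehydrin, was called in 8 tissues with fractions from 0.151 in shoot to 0.204 in seedling. In seed COR47 stood at 0.301 without being called, at 3.46 TPM. GAE1, an epimerase that makes UDP-galacturonate for pectin, was called in 8 tissues with fractions from 0.172 in seedling to 0.222 in stem, and stood at 0.247 in seed without being called. SAMDC, an enzyme of polyamine synthesis, had 1 site called in 8 tissues at no more than 0.110 and another called in 4 tissues. TCP3, a transcription factor of leaf development, was called in 7 tissues with fractions from 0.327 in silique over 0.380 to 0.465 in stem. The stem value of TCP3 was not a call, and its transcript had 2.25 TPM there.

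The highest fractions belonged to few sites. AT1G05247, the only member in an annotated snoRNA gene, was called in 5 tissues with fractions of 0.855 in root, 0.885 in silique, 0.892 in shoot, 0.920 in flower and 0.972 in cauline leaf. It was lowest in stem (0.491, not called), where the gene had 0.29 TPM. Next by mean called fraction among sites called in at least 3 tissues were PEP (0.448), TCP3 (0.394), DYL1 (0.393), a dormancy-associated protein, and the AT4G30993 site at position 15100250 of chromosome 4 (0.364). A site on chromosome 1 at 25927199 (- strand) with no annotated gene was called in 8 tissues, from 0.128 in shoot (not called) over 0.217 to 0.414 in rosetta leaf. Another unannotated site, on chromosome 3 at 17445242, was called at 0.908 in seed and 0.477 in shoot.

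**Figure D5:**
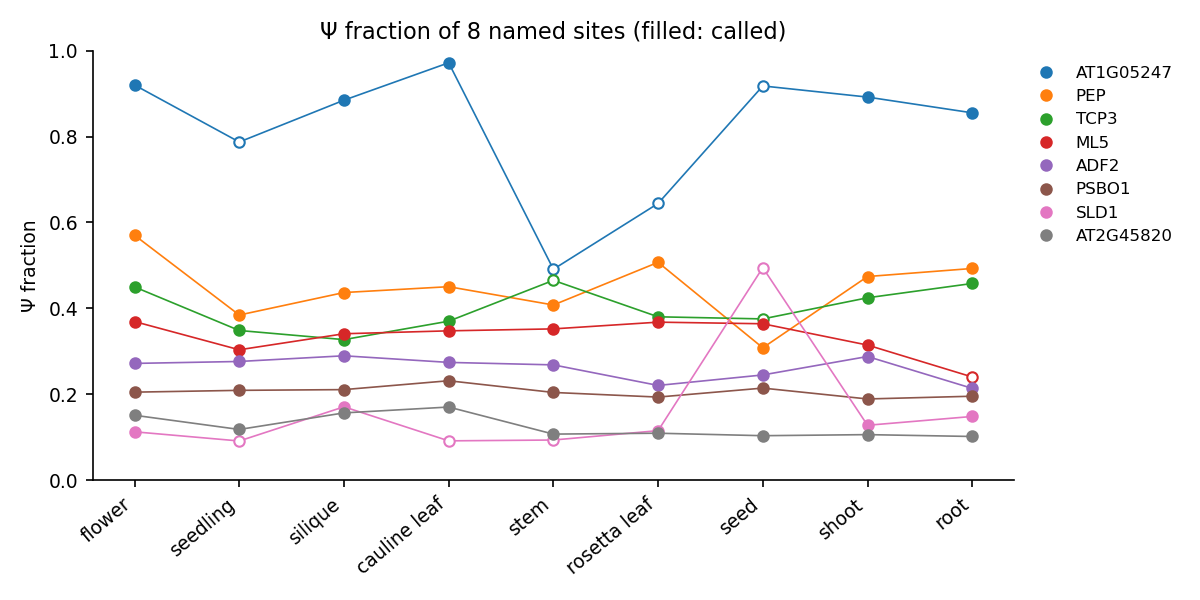
Ψ fraction in 9 tissues for 8 named sites, with filled circles for called values and open circles for values that were not called. PSBO1, ADF2 and AT2G45820 vary by less than 0.08 over the tissues, and SLD1 stands at 0.495 in seed without being called there.

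Sites called in 1 tissue only were most numerous in root. Root alone accounted for 104 members (19.7%; 13.8% of all sites were called only there), flower for 37 (8.40% of all sites), seed for 30 (8.47%), seedling and cauline leaf for 27 each (5.68% and 3.69%), stem for 22 (4.94%), rosetta leaf for 23 (4.63%), silique for 20 (4.45%) and shoot for 15 (4.50%). In the genes of the 103 root-only members with TPM values the median was 217 TPM in root and 47.0 TPM for the median of the other tissues, and 69 of these sites had a host that was most abundant in root. Nevertheless, 101 of these 103 sites had a fraction above 0 in some other tissue, and the fraction was highest in root at only 43. For seed, 23 of 29 sites with TPM values had their host most abundant in seed, with medians of 287 TPM there and 16.0 TPM elsewhere. In other tissues fewer hosts were most abundant where the site was called, namely 4 of 27 for seedling (14.8%), 12 of 37 for flower (32.4%) and 5 of 15 for shoot (33.3%), with 12 of 21 for rosetta leaf (57.1%) and 10 of 20 for silique. The part of transcript abundance in these calls was not tested.

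Among the sites with the largest gap to any other tissue, NRT2.5, a nitrate transporter, was called in seed at 0.319, where its transcript had 39.3 TPM, while the other tissues with a value were at 0 and had at most 0.905 TPM. AT4G39110, a receptor-like kinase, was called in flower at 0.289 (72.7 TPM) and was at 0 in the 7 other tissues with a value (at most 4.30 TPM). XTH16, a cell wall xyloglucan enzyme, was called in flower at 0.224 (98.02 TPM) and had 0.148 in silique (31.1 TPM). AT3G28600, an ATPase family protein, was called in root at 0.486 with 9.27 TPM. It was at 0 in flower, stem and shoot (at most 2.56 TPM) and had no value in the other tissues. AT3G60965, not a protein-coding gene, was called in root at 0.611. Without being called, it stood at 0.333 in flower and 0.298 in seedling, and it was at 0 in the other tissues. AT1G60545, also outside protein-coding genes, was called in seed at 0.922 and was at 0 in each other tissue, with 3.14 TPM in seed and 3.59 to 7.70 TPM elsewhere.

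Between tissues, the fractions of shared sites differed in both directions. Over the 36 pairs of tissues, the median difference across sites called in both lay within 0.0313 of 0. The largest was 0.0313 for seed minus root (higher in seed at 15 of 19 sites), followed by 0.0267 for cauline leaf minus root (higher in cauline leaf at 28 of 40 sites). Over all sites above 0 in both tissues, these differences were 0.0102 and 0.00976, the largest was 0.0247 for flower minus shoot (higher in flower at 343 of 468 sites), and silique minus root was -0.00857, against 0.0154 over the sites called in both. Single sites varied more than these medians, and for the 48 sites called in at least 5 tissues and above 0 in each the range across tissues had a median of 0.103. With 1 combined value per tissue no test of these differences was possible.

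Sites in UTRs had called fractions like those in coding sequence. The median was 0.152 over 75 calls in 3′ UTRs, 0.162 over 17 calls in 5′ UTRs and 0.162 over 912 calls in coding sequence. The sites named here were picked for the highest mean called fractions in each UTR. AT4G30993, a phosphoesterase family gene, had 2 members in its 3′ UTR. The upstream one (0.0624 to 0.488, median 0.117) was called in flower and seed, and the downstream one (0.197 to 0.493, median 0.265) in flower, silique, stem and seed. Both had their highest value in seed, where the transcript had 20.8 TPM, against 19.5 to 83.4 TPM in the other tissues. In the 5′ UTR, AT3G27100, an mRNA export factor, was called in shoot (0.379) and root (0.308), and AT5G45430, a protein kinase, in rosetta leaf (0.157) and shoot (0.184).

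The class was spread thinly over genes. The 517 sites in protein-coding genes lay in 489 genes, of which 464 had 1 member, 22 had 2 and 3 had 3 members. A GCΨC site was also present in 77 of the 489 genes (15.7%). The genes with 3 members were LHCB2.2, which encodes a light-harvesting protein of photosystem II, DIN10, a raffinose synthase family protein, and AT4G11320, a papain-type cysteine protease. The LHCB2.2 sites were called in no tissue and stayed at or below 0.102. The DIN10 sites were called in 1 or 2 tissues each, with called values from 0.0675 to 0.102. The AT4G11320 sites were all called in root (0.103, 0.110 and 0.193), where the transcript had 1205 TPM, against 1.48 to 256.5 TPM in the other tissues. None of the 7 genes singled out in the study's account of mRNA sites held a member.

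Photosystem and light-harvesting genes made up a larger share of the host genes than of the genes with any listed site. Hosts whose product name contained photosystem, light harvesting, chlorophyll a/b binding or oxygen-evolving numbered 15 of 489 (3.07%, 1.87 to 5.00), against 48 of the 5150 genes with any listed site (0.932%). Their 19 members had a median called fraction of 0.112 over 45 calls, and the class median was 0.163. Some of these transcripts were very abundant, with up to 2712 TPM for PSBO1 and 2587 TPM for LHCB2.2. In genes of 1000 TPM or more, 46.9% of member values were called and the median called fraction was 0.0991. The part of abundance in these shares was not tested. PSBO1 was called in 9 tissues, LHCB3 in 7, LHCB5 at separate sites in 6 and 5, and PSAL and Lhca6 in 5 each. Of the 19 members, 4 in LHCB2.1 and LHCB2.2 lay in 31-nt windows that occur more than once in the genome, so reads from these paralogs may not be separable. The words were chosen after values had been seen and no test was made.

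The tissue labels and the sites themselves were checked. The seed storage genes CRU3, CRA1 and SESA1 were most abundant in seed, PYK10 and CASP1 in root, AP1, AG and PI in flower, RBCS1A, CAB2 and CAB3 in rosetta leaf, CESA4, IRX3 and IRX1 in stem and SHP1 in silique, whereas AGL8, listed as a silique marker, was highest in stem. Seedling and shoot also carried the root marker PYK10 (1936 and 673 TPM, against 2024 TPM in root). The 7-letter motif matched the TAIR10 chromosomes at every member. Of the 527 sites, 6 had another listed site within 4 nt and 50 (9.49%) within 50 nt, and 11 lay in 31-nt windows found more than once.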

How the data were processed

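BID-seq deletions were measured in poly(A)-enriched RNA of 9 Arabidopsis tissues (56 treated and 16 input libraries). The authors aligned reads, summed reads with and without a deletion over the replicates of a tissue, converted the deletion rate to a Ψ fraction with a calibration curve and flagged sites that passed their filter. The deposited site table holds, per tissue, this fraction (0 to 1) and the flag, without read counts, so the depth is unknown. The deposited expression table holds TPM values of the authors, 16 columns over 9 tissues. Their names give tissue and replicate number, they were taken as input libraries, and columns of a tissue were averaged. All columns were used.

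Sites were placed on RefSeq TAIR10.1 with its Araport annotation, using the longest coding transcript of each gene. Python 3.11.15 was used with numpy 2.4.6, scipy 1.17.1, pandas 2.3.3 and ViennaRNA 2.7.2. A value of 0 was kept as listed. In each tissue the class was compared by median called fraction, share called, coding share, called sites per 1000 occurrences and host expression as log2(TPM + 1), and the 9 differences were tested with a two-sided exact sign-flip permutation test, adjusted by Benjamini-Hochberg over 8 tests at 0.05. The test was tested on simulated data. Intervals are 95% Wilson intervals and cover counting of sites only. Labels give replicate numbers but no separate plants.

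Named sites were those called in all tissues (or the 5 called in the most), the 5 with the highest mean called fraction among those called in at least 3 tissues, 2 each called only in seed, root or flower with the largest gap, genes with 3 or more members, members in 7 genes the study named, the 2 highest in each UTR, up to 5 outside protein-coding genes, and 3 of the widest range among sites called in at least 5 tissues. Other names were chosen after their values were seen. The members and lists were chosen with earlier results of these data known. Alternatives left out seed or each tissue, changed the sites (called, or above 0), genes or transcript models used, set a minimum fraction of 0.1, or replaced the median.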

Additional observations from a re-analysis of the deposited data

Results flagged for a closer look

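Among the named sites with a value in each of the 9 tissues, 8 had 1 tissue far from the rest, set apart by a gap that was large relative to the range over tissues. Chance alone would flag about 1 in 20 such sets if the values were independent and equally variable. These fractions cannot fall below 0 and the tissues are not replicates of each other, so that rate need not hold here. The number of flagged sites therefore cannot be compared with chance. AT1G60545 and SLD1 had been named for their gap or range over tissues, which favours a flag. AT1G60545 stood at 0.922 in seed and at 0 in the other tissues. SLD1, a sphingolipid desaturase, stood at 0.495 in seed, where its transcript had 2.73 TPM and the site was not called, with a next value of 0.171. The upstream 3′ UTR site of AT4G30993 stood at 0.488 in seed, with a next value of 0.193. AT4G11320 at position 6887659 stood at 0.324 in stem (1.48 TPM, not called), with a next value of 0.151. DIN10 stood at 0.102 in seedling for position 6834616, at 0 in seed for position 6835683, and at 0.103 in seed for position 6836558, where the gene had 2.58 TPM. LHCB2.2 at position 1799692 stood at 0 in seed, against 0.0616 or more in the other tissues.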

How the results depend on the processing

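Of 117 recomputed values of the 8 tested differences, 104 kept their direction and side of the threshold. The lower fraction against Ψ between U and C (-0.135 to -0.0812), the fewer calls per occurrence (-11.2 to -8.22) and the higher host expression (0.34 to 0.52) did so under each alternative. Against all other sites, the fraction difference passed the threshold with protein-coding genes alone (0.0120, adjusted p = 0.0469, exact sign-flip permutation test). It turned and passed the threshold in the other direction with a minimum fraction of 0.1 (-0.0382) and with means (-0.0543), each with adjusted p = 0.00781 in the same permutation test, and turned over the left-out tissues (-0.00155 to 0.00491, negative without cauline leaf). Against GCΨC sites it turned with means (0.00044) and passed the threshold when every fraction above 0 was used (-0.00964, adjusted p = 0.0234, same permutation test). The share called against all other sites turned with the minimum fraction (1.57). The coding share, near 0 throughout, turned at 10 TPM (-0.0111), with the minimum fraction (-0.949), with the first transcript model (-0.117) and over the left-out tissues (-0.575 to 0.576, negative without seedling, cauline leaf or rosetta leaf). The causes were not tested. No paired analysis was possible because the fractions are 1 combined value per tissue and the TPM columns were only averaged. The number of tissue pairs with a median difference over 0.02 was 2 over sites called in both tissues and 3 over sites above 0 in both, with no pair in common. Unknown read depth limits every fraction.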
